A study of Mus musculus with 7 samples.

Results

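The clustered protocadherins of mouse cerebral cortex were compared between late embryonic development and young adulthood. Members were chosen by symbol, as entries of the gene table whose name is Pcdha, Pcdhb or Pcdhg followed by letters or digits, and not by their values. The rule found 24 of the 36666 entries: 1 alpha entry (Pcdha1), 22 beta entries (Pcdhb1 to Pcdhb22) and 1 gamma entry (Pcdhga11). RNA came from cortices of C57BL/6 mice, 4 samples at embryonic day 17 and 3 samples labelled adult, which the design text calls young adult, with no treatment or allele named in the labels. The sex of the animals and whether each sample came from 1 animal are not stated, and p-values therefore cover only the spread among these 7 samples, which may be technical.

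Clustered protocadherins are cell adhesion proteins of the cadherin superfamily, made from 3 gene clusters that lie side by side on chromosome 18. In the alpha and gamma clusters a variable first exon, with its own promoter, encodes the extracellular and transmembrane parts and is spliced to constant exons shared by the whole cluster. Beta genes have no shared constant exons. Single neurons express different combinations of isoforms, and matching isoforms bind each other between membranes. This is known to let branches of 1 neuron avoid each other and to support the survival and wiring of neurons.

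The libraries held 18444271 to 23606525 reads in genes. Levels are counts per 1000000 reads in genes (CPM), from read counts recovered from the deposited values. Differences are the adult mean less the embryonic mean of the deposited, log2-like values, where 1 is close to 2-fold at high counts and more than that at low ones. They were tested with limma over 22828 genes. Fewer cells of a type and less RNA per cell cannot be told apart in bulk tissue.

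The alpha cluster was represented by the Pcdha1 entry, in which few reads lay in the exon specific to that isoform. Of its 2 listed exons, the first, at chromosome 18 position 37089939 (mm9), held 14 to 53 reads per sample. The other, at 37344600, held between 40.0% and 66.7% of the entry's reads in each sample. The 2 starts lie 254661 bases apart. In GENCODE M21, which uses another build, exons 1 and 4 of Pcdha1 start at the same spacing, and exon 4 starts at 1 position in all 13 alpha genes annotated there. Reads in that exon cannot be assigned to an isoform, so the entry is not read as a measure of Pcdha1 alone. Whether it pools the reads of all alpha isoforms is not stated in the sources used here.

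The Pcdha1 entry had 198, 176, 190 and 225 CPM in embryonic replicates 1 to 4 and 176, 175 and 159 CPM in adult replicates 1 to 3. The highest adult value lay just under the lowest embryonic one in CPM, while the groups overlapped on the deposited scale. The difference was -0.13 (SE 0.09, 95% interval -0.31 to 0.06, adjusted p = 0.194), so no change was called. It was called lower when samples were centred on their medians (-0.31, adjusted p = 0.0045) and in voom with library totals (-0.22, adjusted p = 0.0357).

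The first exon of Pcdha1, which belongs to that isoform, held 25, 31, 14 and 37 reads in the embryonic samples and 42, 53 and 37 reads in the adult samples. Its share of the entry's reads was 0.642 ± 0.202% (SD, n = 4) in the embryo and 1.12 ± 0.142% (SD, n = 3) in the adult, and the shares did not overlap. Set against the other listed exon in limma's diffSplice, the difference did not pass (adjusted p = 0.147), where 4.87% of all 86199 exons passed. The score of that other exon resolves its share only as 40.0% to 66.7% in every sample. The contrast therefore rests almost wholly on the first exon and cannot show a change within that range in the other. Embryonic replicate 3, with 14 reads, was the lowest sample.

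The gamma cluster was represented by the Pcdhga11 entry, and its level differed by less than the spread between samples. It had 695, 739, 718 and 686 CPM in the embryonic samples and 682, 742 and 739 CPM in the adult samples. The lowest and the highest of the 7 values were both adult, so the groups overlapped fully. The difference was 0.11 (SE 0.07, 95% interval -0.05 to 0.26, adjusted p = 0.192) and turned to -0.07 when samples were centred on their medians. Of all genes tested, 7.32% had a smaller absolute difference than Pcdhga11 and 8.88% a smaller one than Pcdha1.

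Within the gamma entry, the 1 listed exon, at chromosome 18 position 37915427 (mm9), took a smaller share of the reads in adult cortex. Its share was 5.26, 4.55, 4.76 and 5.56% in the embryonic samples and 3.45, 2.94 and 2.78% in the adult samples, with every adult share under every embryonic one. In CPM the exon went from 35.6 ± 2.10 (SD, n = 4) to 22 ± 1.5 (SD, n = 3), 0.616 times the embryonic level, while the entry as a whole did not differ beyond its spread. The deposited exon value, which is variance-stabilized and rises as the share falls, differed by 2.39 (SE 0.39, adjusted p = 0.0275 in limma, each exon by itself). Of all exons, 1.98% were called in either direction and 0.951% with a smaller share in adult. The call of this exon was lost without any 1 of 6 samples (adjusted p = 0.0558 to 0.115) and held without adult replicate 1 (adjusted p = 0.0399). It was also lost in the replicate block fit (adjusted p = 0.194), whose estimate is the same as that without embryonic replicate 4. The share was lower in adult each time.

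**Figure D1:**
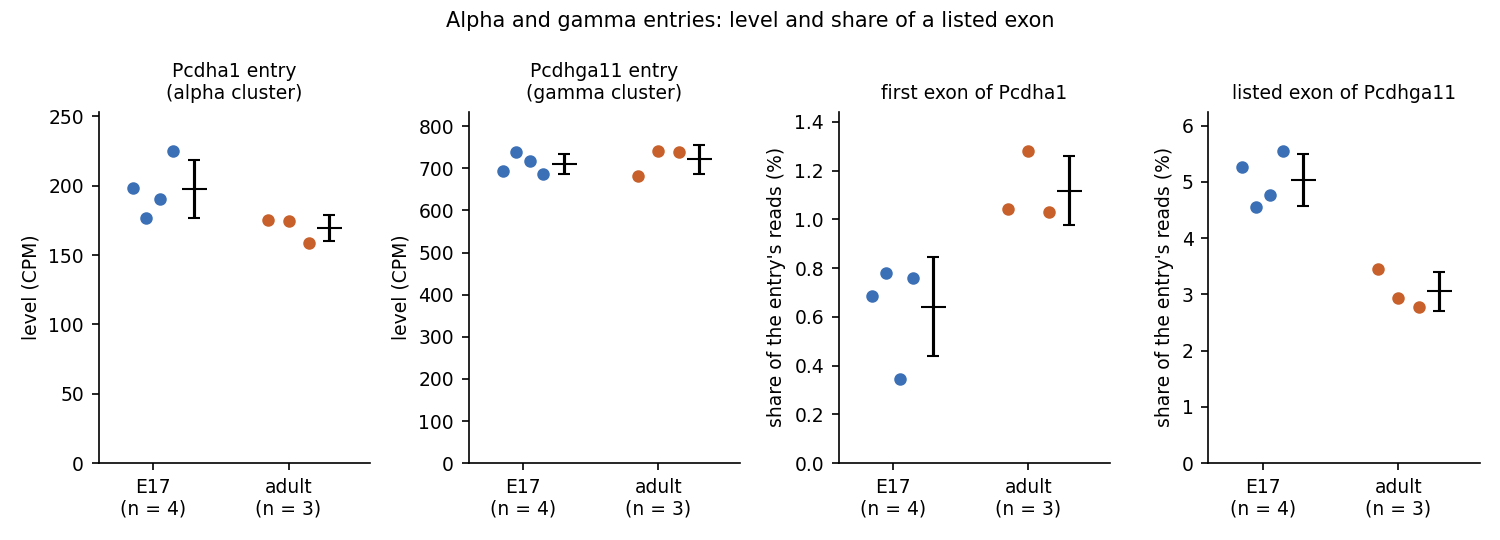
Levels (CPM) of the Pcdha1 and Pcdhga11 entries and the share (%) of their reads in the first exon of Pcdha1 and the listed exon of Pcdhga11; points are samples, and the black bar with whiskers is mean ± SD (4 embryonic day 17 and 3 adult samples). The Pcdhga11 exon share sits at 4.55 to 5.56% in the embryo and 2.78 to 3.45% in the adult, while the entry stays between 682 and 742 CPM.

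In GENCODE M21 all 22 gamma genes share the start of the last exon of Pcdhga11, so reads in that exon cannot be assigned to isoforms. How many reads of the entry lie there is not known. The listed exon was not assigned to a variable or a constant exon, and whether the entry pools all gamma isoforms is not stated. Other alpha and gamma isoforms, among them the C-type ones, are not analysed here.

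All 10 members that passed the test were beta genes, as are 22 of the 24 members. The alpha and gamma clusters had only 1 entry each. Each beta gene has its own entry, so its members can be followed singly. Of the 22 beta genes, 5 were higher and 5 were lower in adult cortex, and 12 were not called. That is 45.5% called, where 69.7% of all genes tested were called, 35.8% higher and 33.9% lower. Over all 24 members the share was 41.7%. The median absolute difference was 0.30 over the members and 0.78 over all genes tested, and the estimates of 3 members (Pcdhb1, which was not called, Pcdhb12 and Pcdhb14) were 1 or more, against 39.3% of genes tested. On the deposited scale the groups did not overlap in 11 of the 24 members (45.8%), against 68.9% of genes tested.

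**Figure D2:**
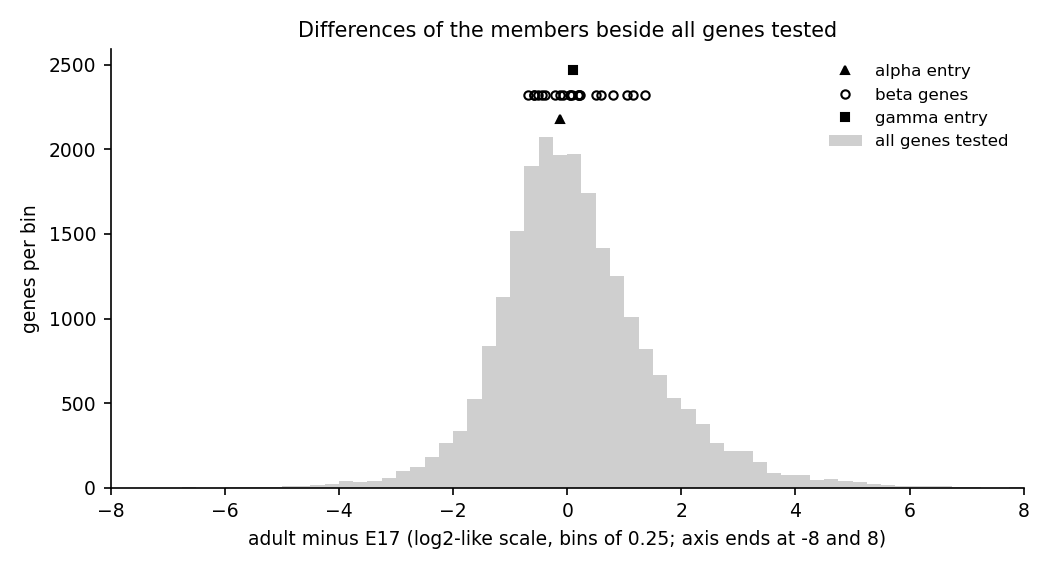
Histogram of adult minus embryonic differences (log2-like scale, bins of 0.25) for all genes tested, with the 24 members as symbols above it; 11 genes lie beyond the axis. The members span -0.68 to 1.37, a span that holds 58.1% of all genes tested.

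The 5 genes that rose were Pcdhb9, Pcdhb10, Pcdhb12, Pcdhb13 and Pcdhb14, which stand next to each other in the cluster with only the uncalled Pcdhb11 between them. Like the other beta genes, each encodes a single-pass membrane protein with cadherin repeats.

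Pcdhb14 had 2.49, 3.41, 3.34 and 2.31 CPM in embryonic replicates 1 to 4 and 7.33, 7.07 and 5.50 CPM in adult replicates 1 to 3. Every adult value was above every embryonic one, and the mean was 2.30 times higher (difference 1.15, SE 0.16, adjusted p = 2.14e-05). Pcdhb12 had 2.98, 2.92, 4.23 and 4.16 CPM in the embryo and 6.89, 8.30 and 7.26 CPM in the adult. The adult values were again all above the embryonic ones, with a ratio of 2.09 (difference 1.05, SE 0.15, adjusted p = 2.58e-05).

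Pcdhb13 had 3.25, 2.39, 2.78 and 2.08 CPM in the embryo and 4.49, 4.91 and 4.44 CPM in the adult, where the 3 samples lay close together. Its mean was 1.76 times higher in adult (difference 0.80, SE 0.16, adjusted p = 0.000386). Pcdhb9, among the beta genes with the most RNA per length, had 7.05, 7.75, 7.95 and 7.67 CPM in the embryo and 12.96, 11.1 and 9.68 CPM in the adult. The ratio was 1.48 (difference 0.60, SE 0.12, adjusted p = 0.000357), with no overlap of the groups.

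Pcdhb10 had 2.87, 2.52, 2.40 and 2.82 CPM in the embryo and 2.92, 5.08 and 3.47 CPM in the adult. Adult replicate 1 lay only just above the highest embryonic sample, and adult replicate 2 was far above the rest. The difference was 0.51 (SE 0.17, adjusted p = 0.019). The call was lost without adult replicate 2 (0.30, adjusted p = 0.122), without embryonic replicate 2 (0.49, adjusted p = 0.054) or 3 (0.47, adjusted p = 0.0593), and with centring on sample medians (0.32, adjusted p = 0.106).

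Of the 5 genes that fell, Pcdhb19, Pcdhb21 and Pcdhb22 lie at the gamma end of the cluster and Pcdhb4 and Pcdhb7 nearer its start. Pcdhb21 had 6.29, 6.20, 6.63 and 6.89 CPM in the embryo, where the samples were alike, and 4.84, 3.52 and 2.77 CPM in the adult. The adult mean was 0.571 times the embryonic one (difference -0.68, SE 0.15, adjusted p = 0.00136). Pcdhb4 had 4.99, 3.37, 4.75 and 4.25 CPM in the embryo and 2.71, 2.41 and 2.51 CPM in the adult. Each adult sample was below each embryonic one (ratio 0.586, difference -0.59, SE 0.15, adjusted p = 0.00324).

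Pcdhb7 had 12.96, 10.4, 11.4 and 10.8 CPM in the embryo and 8.33, 6.86 and 5.89 CPM in the adult, with no overlap (ratio 0.617, difference -0.58, SE 0.13, adjusted p = 0.00104). Pcdhb19 had 18.1, 14.8, 12.1 and 18.6 CPM in the embryo and 10.7, 9.997 and 9.77 CPM in the adult. The embryonic samples were spread widely and the adult ones were not, and the groups did not overlap (ratio 0.64, difference -0.51, SE 0.13, adjusted p = 0.00347).

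Pcdhb22 had 10.03, 8.06, 9.60 and 11.1 CPM in the embryo and 6.98, 7.63 and 5.98 CPM in the adult. The groups were apart in CPM but overlapped on the deposited scale, and the difference was -0.38 (SE 0.13, adjusted p = 0.0162). Its call was lost without embryonic replicate 1 (-0.36, adjusted p = 0.0524) or 4 (-0.32, adjusted p = 0.0561) and without adult replicate 3 (-0.29, adjusted p = 0.0788). It was also lost in the replicate block fit (-0.32, adjusted p = 0.0625), whose estimate is the same as that without embryonic replicate 4. The other 8 called genes, all except Pcdhb10 and Pcdhb22, kept their direction and their call in each of the 13 alternatives run, those 2 kept their direction, and no called gene changed sign.

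**Figure D3:**
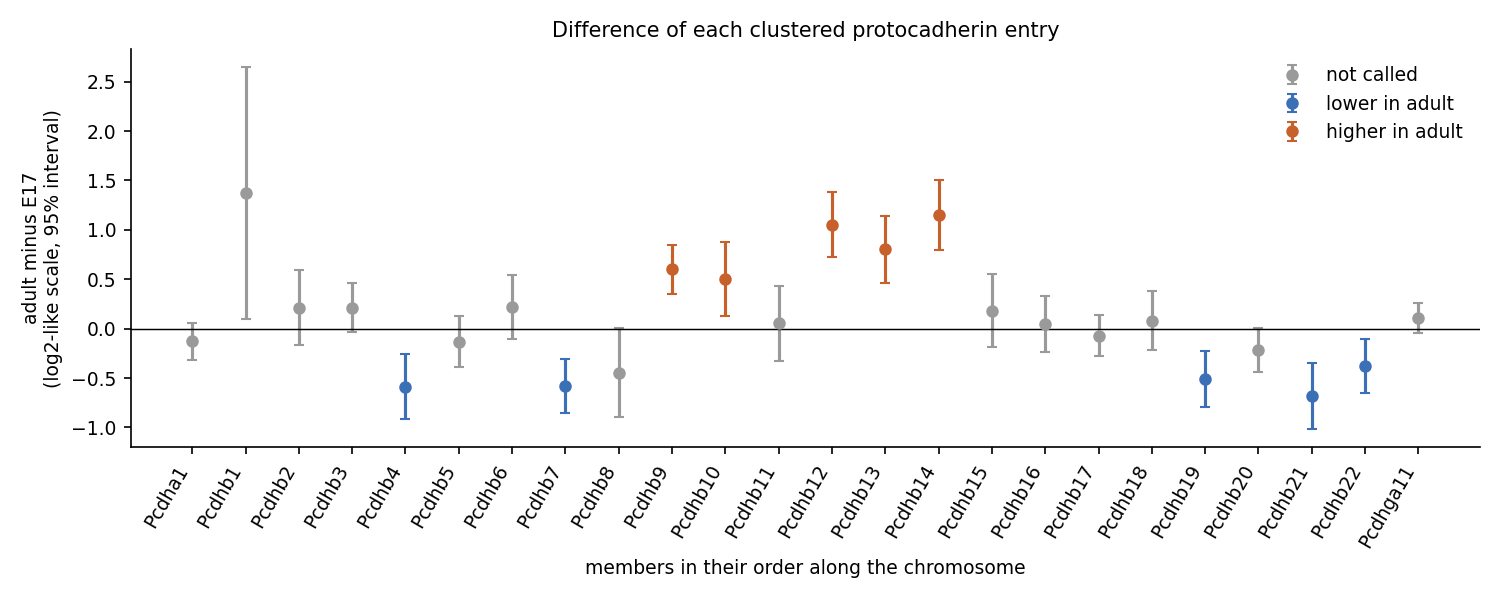
Adult minus embryonic difference (log2-like scale) of each member with its 95% interval from limma, in the order of the genes along the chromosome; colours mark genes called higher, called lower and not called. The 5 genes called higher lie between Pcdhb9 and Pcdhb14, and 3 of the 5 called lower lie between Pcdhb19 and Pcdhb22.

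Along the cluster the estimates came in stretches. From Pcdhb9 to Pcdhb16 all 8 estimates were above 0, with 5 called, although those of Pcdhb11 and Pcdhb16 turned below 0 in voom with library totals and under centring. From Pcdhb17 to Pcdhb22, 5 of 6 estimates were below 0, with 3 called, and from Pcdhb1 to Pcdhb8 it was 4 above and 4 below, with 2 called lower. Of all genes tested, 69.7% were called, 35.8% higher and 33.9% lower, so the counts of calls do not set these stretches apart. The summed level of Pcdhb9 to Pcdhb16 was 32.6 to 37.1 CPM in the embryonic samples and 44.6 to 51.4 CPM in the adult samples. That of Pcdhb17 to Pcdhb22 was 63.1 to 74.8 CPM in the embryonic samples and 50.4 to 55.03 CPM in the adult samples. These stretches were drawn after the values were seen and are a description, with no test.

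The 12 beta genes that were not called ranged from estimates near 0 to those with a wide interval. Nearest to 0 were Pcdhb16 (difference 0.05, 95% interval -0.23 to 0.33), Pcdhb11 (0.05, -0.33 to 0.44), Pcdhb17 (-0.07, -0.28 to 0.14), Pcdhb18 (0.08, -0.22 to 0.38) and Pcdhb5 (-0.13, -0.39 to 0.13). Pcdhb17, with 16 ± 1.07 CPM (SD, n = 4) in the embryo and 14.3 ± 1.06 CPM (SD, n = 3) in the adult, was the beta gene with most reads in the adult. When samples were centred on their medians, the estimates of Pcdhb11, Pcdhb16 and Pcdhb18 turned below 0. Pcdhb17 (-0.25, adjusted p = 0.0322) and Pcdhb5 (-0.31, adjusted p = 0.0325) were then called lower. Without centring, a difference of 1 in either direction lies outside all 5 intervals.

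Pcdhb2, Pcdhb3, Pcdhb6 and Pcdhb15 had estimates of 0.18 to 0.22, which were 0.0008 to 0.0369 under centring. Leaving out 1 sample moved Pcdhb2 between 0.0875 (without adult replicate 2) and 0.3755 (without adult replicate 1), Pcdhb15 between 0.0617 (without embryonic replicate 2) and 0.291 (without embryonic replicate 1), and Pcdhb6 down to 0.0971 (without adult replicate 3). Pcdhb3 was called higher without the mean-variance trend (adjusted p = 0.0451). Pcdhb8 (-0.45, adjusted p = 0.0733) and Pcdhb20 (-0.22, adjusted p = 0.0716) missed the threshold, and both were called lower under centring (adjusted p = 0.0167 and 0.00265). In CPM the groups of Pcdhb20 did not overlap, with 12.7 to 15.4 in the embryo and 10.6 to 11.9 in the adult. Pcdhb8 overlapped, and with 35 to 86 reads per sample its counts carry a sampling error of up to 16.9%.

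Pcdhb1, the first gene of the cluster, was hardly detected, with 0, 2, 0 and 1 reads in the embryonic samples and 2, 6 and 2 reads in the adult samples. A count of 0 allows up to 0.163 CPM in embryonic replicate 1 and 0.141 CPM in replicate 3. The rate was 4.04 times higher in adult with a 95% interval from 1.04 to 22.8, which covers counting error only. It was not called by limma on the deposited values (adjusted p = 0.0527), but was called in 6 of the 13 alternatives, with adjusted p of 0.0187 to 0.0454.

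**Figure D4:**
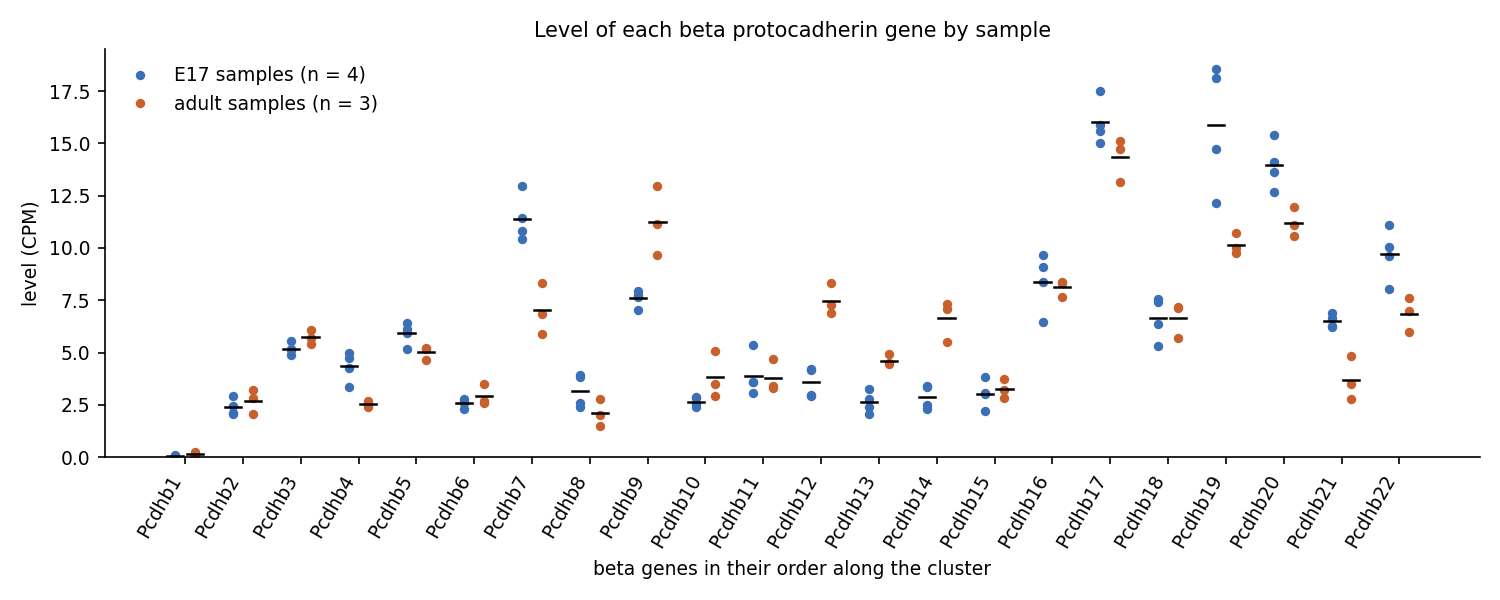
Level (CPM) of each of the 22 beta genes in every sample, in their order along the cluster; points are samples (4 embryonic day 17, 3 adult) and black bars are group means. Pcdhb9, Pcdhb10 and Pcdhb12 to Pcdhb14 have all adult points above the embryonic ones, and Pcdhb4, Pcdhb7, Pcdhb19, Pcdhb20, Pcdhb21 and Pcdhb22 have them below.

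Per length, using the longest GENCODE M21 transcript, the order of the beta genes differed between stages. Pcdhb20 (3.92 CPM per kilobase), Pcdhb17 (3.44) and Pcdhb7 (3.26) led in the embryo, and Pcdhb9 (3.69), Pcdhb20 (3.15) and Pcdhb17 (3.08) in the adult. Pcdhb1 was lowest in both stages (0.013 and 0.0553 CPM per kilobase), with Pcdhb14 the lowest but 1 in the embryo (0.332) and Pcdhb8 in the adult (0.63). Levels per length are approximate, because the sources used here do not give the authors' gene models.

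The summed level of the 22 beta genes was 147, 128, 132 and 147 CPM in the embryonic samples and 134, 133 and 123 CPM in the adult samples, so the groups overlapped. The ratio of the means was 0.94 and was 0.998 with median-of-ratios scaling. The 5 genes called higher made up 12.7 to 15.7% of the beta sum in the embryo and 24.6 to 27.4% in the adult. Those called lower made up 33.5 to 35.6% in the embryo and 21.9 to 25.1% in the adult. Since these genes were picked by their calls, the direction of both shares is fixed by the choice.

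**Figure D5:**
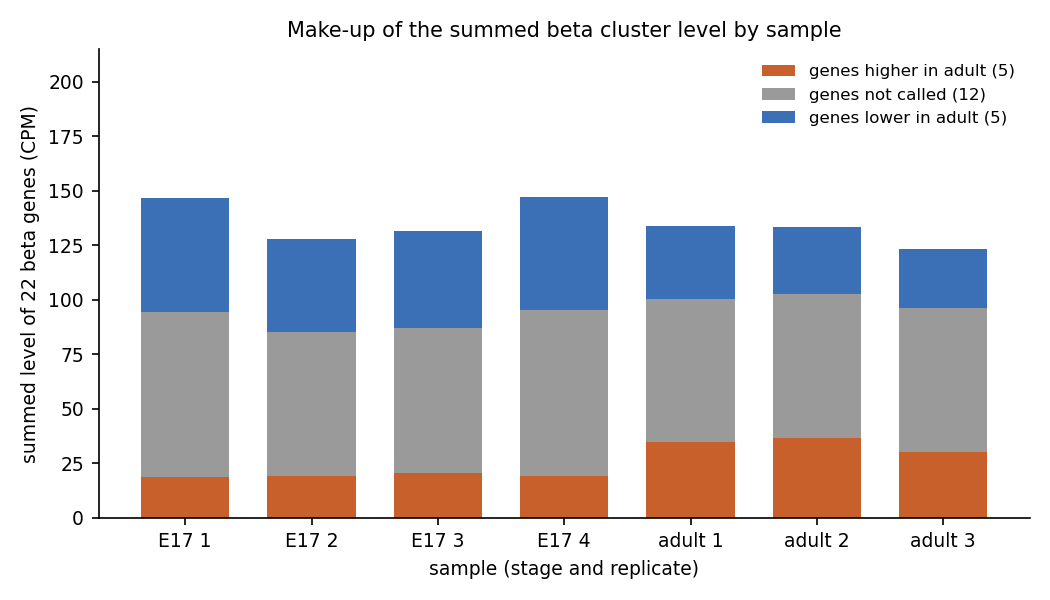
Summed level (CPM) of the 22 beta genes in each sample, stacked by the 5 genes called higher in adult, the 12 not called and the 5 called lower. Bars reach 128 to 147 CPM in the embryo and 123 to 134 CPM in the adult, and the part of the genes called higher is 18.7 to 20.7 CPM in the embryo and 30.4 to 36.5 CPM in the adult.

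Sequence shared between beta genes limits how firmly reads can be assigned. Of all 50-base windows of each beta transcript, 0% (Pcdhb1) to 12% (Pcdhb12) also occur in another clustered protocadherin. Pcdhb12 shares most with Pcdhb11 (8.01%), Pcdhb21 with Pcdhb22 (9.49%) and Pcdhb9 with Pcdhb7 (6.29%), while Pcdhb13 and Pcdhb14 share 1.8% and 1.5% in all. Read length and the treatment of reads with several matches are not given in the sources used here. Reads of an overlapping antisense RNA also cannot be told apart, since the use of strand is not given.

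A list of factors that act on protocadherin promoters, chosen with earlier results of these data known, was lower in adult cortex. Of 16 genes, 15 were lower and none was higher, where 33.9% of all genes tested were lower and 35.8% higher, with a median difference of -1.02 against 0.03 over all genes tested. Ctcf, the DNA-binding protein that loops protocadherin promoters to their enhancers, fell from 153 ± 5.79 to 74.3 ± 1.74 CPM (difference -0.94, SE 0.07). Smchd1, a chromatin protein involved in silencing at the clusters, fell from 93.2 ± 10.5 to 40.1 ± 4.17 CPM (-1.11, SE 0.10). The largest differences were in the DNA methyltransferases Dnmt3b (4.62 ± 1.01 to 0.898 ± 0.228 CPM) and Dnmt1 (266 ± 18.9 to 69.6 ± 3.93 CPM), and the cohesin-associated Pds5b was not called (-0.002, adjusted p = 0.988). Summed markers of dividing progenitors were 333 to 475 CPM in the embryo and 5.59 to 8.98 CPM in the adult. The part of these cells in the differences of the list was not tested.

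Of 14 genes of partners and effectors, Ret and Nlgn1 among them, 8 were higher, 3 lower and 3 not called, and 6 were higher under centring. Since 69.7% of all genes tested were called, this count does not set the list apart. Ptk2b, the kinase PYK2 that binds the shared cytoplasmic domains, rose from 20.1 ± 6.37 to 593 ± 98.3 CPM. Cyfip2, a subunit of the WAVE complex that controls actin, rose from 269 ± 6.35 to 1055 ± 67.2 CPM. Marcks, an actin-binding protein linked to gamma protocadherins, fell from 503 ± 37.3 to 158 ± 41.6 CPM, and the kinase Fyn fell from 237 ± 3.62 to 137 ± 18.3 CPM.

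Of 7 genes of enzymes that cleave protocadherins, 5 were lower and 2 higher, where 33.9% of all genes tested were lower and 35.8% higher. The gamma-secretase subunit Aph1b fell from 54.4 ± 4.11 to 29.98 ± 2.90 CPM and Aph1a from 41.3 ± 1.67 to 30.2 ± 1.94 CPM. Psen2, a catalytic subunit of gamma-secretase, rose from 11.1 ± 0.786 to 17.02 ± 2.92 CPM, and Psenen rose from 10.9 ± 0.833 to 13.7 ± 0.953 CPM but was not called under centring (adjusted p = 0.0817).

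Of 12 protocadherin genes outside the clusters, 7 were higher, 4 lower and 1 not called, and 10 of the 24 clustered entries were called, where 69.7% of all genes tested were called. Whether these shares differ was not tested. Under centring 6 were higher, as Pcdh17 was then not called (adjusted p = 0.0592). Pcdh1 rose from 83.6 ± 3.08 to 286 ± 26.9 CPM (difference 1.84, SE 0.08) and Pcdh20 from 10.4 ± 1.79 to 34.8 ± 5.73 CPM (1.75, SE 0.14). Pcdh12, an endothelial protocadherin, fell from 4.94 ± 0.517 to 0.715 ± 0.518 CPM (-2.37, SE 0.26) and Pcdh18 from 29.5 ± 3.33 to 7.25 ± 1.2 CPM (-1.85, SE 0.12). In these sentences ± is the SD, with n = 4 embryonic and n = 3 adult samples.

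Markers of the cell types of the tissue also differed between the stages. Summed levels of neuron markers were 2359 to 2582 CPM in the embryo and 5654 to 5925 CPM in the adult (4 of 5 higher, 1 lower). Sums of markers of young neurons were 2403 to 2921 CPM in the embryo and 94.6 to 109.7 CPM in the adult (3 of 3 lower). Those of radial glia were 669 to 727 and 59.1 to 89.6 CPM (3 of 4 lower), and those of dividing progenitors 333 to 475 and 5.59 to 8.98 CPM (3 of 3 lower). Sums were higher in adult for astrocytes (61.8 to 68.7 against 671 to 728 CPM, 4 of 4 higher) and oligodendrocytes (47.97 to 50.96 against 3563 to 6377 CPM, 4 of 4 higher). They were also higher for oligodendrocyte precursors (53.3 to 57.3 against 99.8 to 111.6 CPM, 2 of 2) and microglia (15.9 to 19.3 against 156 to 174 CPM, 3 of 3).

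Endothelial sums overlapped (42.97 to 50.98 against 47.4 to 61.2 CPM, 1 of 2 higher). Tissue next to the cortex was also marked more strongly in adult samples, with choroid plexus at 0.867 to 1.36 against 587 to 722 CPM (5 of 5 higher) and meninges at 2.88 to 4.55 against 44.4 to 54.4 CPM (4 of 4 higher). No marker was without reads in all samples. The part of these cell types in the differences of the protocadherins and of the related lists was not tested.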

How the data were processed

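The authors sequenced mRNA of 7 cortex samples. Per the submitters' processing notes, which give no roles, the build was mm9 and the tools were SAMtools 0.1.7a, HTSeq 0.5.3p3, TopHat 1.0.13, CASAVA 1.7.1 and Bowtie 0.12.7.0. The deposited gene values are variance-stabilized by the authors on a log2-like scale that understates folds at low counts. For exons the authors deposited a score, named 1/ratio in the header and likewise stabilized. Within a column the values follow 1 smooth curve over whole numbers, so read counts and exon numbers were recovered from all 14 columns. Above the lowest 60 steps of each gene column, which were assigned, 99.9854 to 99.9931% of values per sample lay within 0.1 of whole. The exon number was the rounded quotient of gene reads over exon reads in 100% of 46872 values checked. Exon shares are 100 divided by that number.

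A gene was kept if at most 3 of the 7 samples were at the lowest value, which all 24 members met. The test was limma 3.58.1 under R 4.3.3 (lmFit, eBayes with trend, no covariate), two-sided, with Benjamini-Hochberg adjustment over all features at 0.05. Deposited exon scores, not the recovered numbers, were tested with diffSplice. For genes with 1 listed exon, each exon was tested by itself, which was added after seeing the data. CPM and shares describe levels only. Scripts were tested on simulated data. The planned count tests and TMM were not used, since the deposited values are not counts, and limma's voom on recovered counts took their place.

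Members were chosen by symbol, and 4 related lists and 11 marker lists by gene name. Earlier results of these data were known when all of them were chosen. Named genes are the 2 highest and 2 lowest beta genes by level, the 3 called genes with the largest differences in each direction, the 5 uncalled genes nearest 0, and in each related list the 2 largest in each direction, with Ctcf and Smchd1. The other members named, Pds5b and Pcdh17 were chosen after their values were seen. Replicate pairs differed beyond counting error (chi-square over its degrees of freedom 4.83 to 17.7). Replicate numbers are shared between stages, but nothing in the labels pairs the samples. Alternatives were another filter, centring, no trend, a replicate block, voom and leaving out each sample. Embryonic replicate 4 has no adult sample of its number. The block therefore gives the same estimates as leaving that sample out, and these alternatives are not separate checks of an estimate.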

Additional observations from a re-analysis of the deposited data

How the results depend on the processing

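When samples were centred on their medians, the median of all genes moved by -0.18 and the share of calls higher in adult went from 51.4% to 43.6%. Beta genes called lower then rose from 5 to 9, and members called lower to 10, while the median difference of both went from 0.07 to -0.11. Over all 22828 genes tested, those called lower rose from 7736 to 9047. In voom with library totals 8 members were called lower, as were 8371 of all 22828 genes tested. The ratio of mean CPM of Pcdhga11 went from 1.02 to 1.08 with median-of-ratios scaling. The replicate block gave a median beta difference of 0.16. Same-numbered samples deviated together by a correlation of 0.009 to 0.057, and differently numbered ones by -0.047 to 0.062. All of the same-numbered values were above 0 and most of the others below 0. The values were small and the labels pair nothing, so the numbers were not taken to pair the samples. The block left 6 beta genes higher and 4 lower, where 68.1% of all genes tested were called. Leaving out each sample gave 4 to 6 beta genes higher and 4 to 6 lower, with a median of 0.0081 to 0.16, and the same ranges of counts over all 24 members, with a median of 0.0081 to 0.12. Of all genes tested, 64.7 to 67.5% were called when each sample was left out.

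Signs turned for 4 uncalled genes. Pcdhb11 was -0.13 under centring, -0.0275 in voom with library totals and -0.0858 to 0.1939 when each sample was left out. Pcdhb16 was -0.13 under centring, -0.0296 in voom with library totals and -0.0605 to 0.1116 when each sample was left out. Pcdhb18 was -0.10 under centring and -0.0117 to 0.1848 when each sample was left out, and Pcdhga11 was -0.0736 under centring. The cause was not tested. With 35 to 402 reads per sample in beta genes other than Pcdhb1, counting error limits small differences.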

Other observations

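The spread of expression over the 22 beta genes was described by an effective number of genes, the exponential of the Shannon entropy of the levels per length, which would be 22 if all were equal. It was 17.5, 17.8, 17.7 and 18.1 in embryonic replicates 1 to 4 and 18.4, 18.2 and 18.3 in adult replicates 1 to 3. The adult samples lay above the embryonic ones by a small amount. The gene with the largest share per length was Pcdhb20 in all 4 embryonic samples, Pcdhb9 in adult replicates 1 and 2 and Pcdhb17 in adult replicate 3, and that share was 10.7 to 12.98% in every sample.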
